A study of Mus musculus with 19 samples.

Results

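The unfolded protein response of mammary luminal cells (LCs) was followed through 36 genes, which were taken by the gene name of their probes. All 36 were on the array, and 35 of them, among 20817 genes in all, were tested because a probe of theirs stood well above background on 4 or more of the 19 arrays. Ern2, a second IRE1 sensor known from gut and airway epithelium, was not tested, since its probes were well above background on 0 and 1 arrays. RNA of LCs, sorted as CD24+CD29lo cells from single ovariectomized C57Bl/6N females, had been labelled and hybridized to 1-colour Agilent arrays, 1 mouse to an array. Mice with a C451A mutation of the estrogen receptor ERα, which removes the palmitoylation site that anchors a fraction of the receptor at the plasma membrane, were compared with wild-type mice. Both genotypes had received a subcutaneous pellet of 17β-estradiol (E2, 0.01 mg over 60 days), with or without progesterone (E2+Pg, 1.5 mg over 60 days). By the labels the animals were 8 weeks old, were ovariectomized at 24 days, received the pellet 10 days later and were treated for 21 days. E2+Pg was given to the mutants L56, L18, L61, L53 and L63 (n = 5) and to the wild types L57, L62, L44, L47 and L21 (n = 5). E2 alone was given to the mutants L4, L58, L27, L76 and L51 (n = 5) and to the wild types L67, L50, L72 and L52 (n = 4). Values of individual mice are given below in these orders. The mutation was present in every cell of the mutant animals, so that the LCs had developed among mutant cells. No transcript on the arrays can check the genotype.

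The unfolded protein response adjusts the endoplasmic reticulum (ER) to the load of proteins that have to fold in it. Its 3 sensors lie in the ER membrane: IRE1 splices the mRNA of the transcription factor XBP1, PERK phosphorylates the initiation factor eIF2α and thereby favours translation of ATF4, and ATF6 is cut in the Golgi to release a transcription factor. Together they raise chaperones, disulfide isomerases and the degradation of misfolded proteins, and the response is best known from secretory cells, to which the luminal cells that later make milk belong. The arrays measured the amount of each transcript, so neither the splicing of Xbp1, the phosphorylation of PERK nor the cleavage of ATF6 was read. The genes were placed by general knowledge in an IRE1 and XBP1 arm (14 genes, 13 tested), a PERK and ATF4 arm (8), an ATF6 arm (9) and a set that several arms share (5). Many of these genes answer to more than 1 arm.

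The motifs by which the arms reach their targets differ. The stretches before the start sites of 5 genes with a match are shown, with the matches in capitals. That of Ern1, the gene that was called, is shown as well and holds no match. Xbp1, Atf4, Ddit3, Ppp1r15a, Pdia4 and Sdf2l1, which are described below, had no match either and are not shown. The sequences shown are RefSeq sequences of GRCm38.p6, 250 bases long, 5′ to 3′ and ending just before the start.
Ern1 (chr11:106487797-106488046, minus strand): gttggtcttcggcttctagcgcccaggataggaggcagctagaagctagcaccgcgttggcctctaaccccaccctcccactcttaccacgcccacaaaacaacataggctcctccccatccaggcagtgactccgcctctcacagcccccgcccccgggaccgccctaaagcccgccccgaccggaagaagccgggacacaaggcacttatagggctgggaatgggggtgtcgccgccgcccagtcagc
Asns (chr6:7693210-7693459, minus strand): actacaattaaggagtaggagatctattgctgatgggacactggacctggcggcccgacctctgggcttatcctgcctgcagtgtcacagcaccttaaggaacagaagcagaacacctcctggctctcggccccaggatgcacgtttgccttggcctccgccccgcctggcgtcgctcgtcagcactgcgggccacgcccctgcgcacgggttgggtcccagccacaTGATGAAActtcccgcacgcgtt
Chac1 (chr2:119350992-119351241, plus strand): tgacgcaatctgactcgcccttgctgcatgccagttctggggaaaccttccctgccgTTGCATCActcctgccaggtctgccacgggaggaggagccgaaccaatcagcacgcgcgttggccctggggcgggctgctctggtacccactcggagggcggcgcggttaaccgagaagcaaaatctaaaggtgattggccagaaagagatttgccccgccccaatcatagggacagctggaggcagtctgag
Herpud1 (chr8:94386179-94386428, plus strand): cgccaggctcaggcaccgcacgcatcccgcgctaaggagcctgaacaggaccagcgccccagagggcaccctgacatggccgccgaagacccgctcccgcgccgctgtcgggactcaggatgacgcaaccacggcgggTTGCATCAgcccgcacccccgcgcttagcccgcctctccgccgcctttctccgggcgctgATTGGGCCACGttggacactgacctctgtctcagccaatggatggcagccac
Hspa5 (chr2:34771840-34772089, plus strand): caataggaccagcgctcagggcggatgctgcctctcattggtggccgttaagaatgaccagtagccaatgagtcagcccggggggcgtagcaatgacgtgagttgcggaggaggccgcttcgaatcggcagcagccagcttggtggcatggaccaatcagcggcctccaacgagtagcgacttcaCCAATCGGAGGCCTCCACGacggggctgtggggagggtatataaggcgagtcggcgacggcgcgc
Hsp90b1 (chr10:86705445-86705694, minus strand): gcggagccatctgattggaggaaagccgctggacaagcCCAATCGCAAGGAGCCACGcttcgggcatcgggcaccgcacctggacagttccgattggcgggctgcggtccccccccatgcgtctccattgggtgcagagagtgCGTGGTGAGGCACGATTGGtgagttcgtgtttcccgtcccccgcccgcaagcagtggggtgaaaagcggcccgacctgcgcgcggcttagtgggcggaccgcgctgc

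Exact matches on either strand were sought to the ER stress element (ERSE, known for ATF6: CCAAT, any 9 bases, CCACG), to ERSE-II (ATTGG, any 1 base, CCACG), to the core TGACGTGG of the unfolded protein response element and to the ATF4 motif TGATGNAA (CARE). The windows held 250 bases before and 50 after the start and existed for 30 of the 36 genes; Ern2, Derl1, Ppp1r15b, Atf6, Hyou1 and Manf had none. ERSE was found in 9 of the 30 genes (30.0%), against 0.137% of 27025 genes with a window. The 9 were Hspa5, Hsp90b1, Calr and Creld2 of the ATF6 arm, Dnajc3, Derl3 and Pdia6 of the IRE1 and XBP1 arm, and Syvn1 and Canx. ERSE-II was found in Dnajb11 and Herpud1, against 0.0444% of all genes. CARE was found in Asns, Chac1, Trib3 and Herpud1 (13.3%), against 4.51% of all genes, and the core element in none of the 30 genes and in 0.714% of all. In Chac1 the CARE match read on the other strand and lay at -193 to -186, with -1 the base before the start, in Asns it lay at -23 to -16, and in Trib3 it lay in the transcribed part. The genes were chosen as known genes of the response that these motifs serve, so the shares describe the list and are no test of it. These matches are letters in a window and no binding was measured.

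Before normalization the 75th percentile of the median signal of an array ran from 248.5 units in wild-type E2 mouse L52 to 490 in C451A-ERα E2 mouse L27. Background was 21 to 29 units, 0 spots were saturated, and 26471 to 31258 probes per array stood well above background. The markers of the sorted cells were present, and Krt8, Krt18, Epcam and Cd24a were well above background on all 19 arrays. Markers of other cells were present as well. All 8 basal markers (Acta2 at a mean of 13.68 and Krt14 at 12.45) and all 6 fibroblast markers (Dcn at 12.47 and Col1a2 at 12.11) were above background on all 19 arrays, as were 5 of 8 immune markers, among them Ptprc at 9.60. Of 4 adipocyte markers Fabp4 was above background on 19 arrays and Cidec on 5, and Adipoq and Plin1 were on 0. Of the 7 plasma cell markers on the array Sdc1, which epithelium also expresses, was above background on 19 arrays, and Irf4 on 17, Prdm1 on 16, Mzb1 on 8, Cd79a on 7, Jchain on 4 and Tnfrsf17 on 1. The mean deviation of the basal markers from all mice was -0.50 to 0.90 in C451A-ERα and -0.53 to 0.07 in wild-type LCs with E2+Pg, and -0.21 to 0.61 in C451A-ERα and 0.10 to 0.43 in wild-type LCs with E2, so that the wild-type groups did not overlap. The 8 markers did not move together. For progesterone in wild-type LCs they lay between -2.67 and 0.96, with 3 above 0 and a median of -0.21. Only Krt5 was called, at -2.29 over both genotypes (limma adjusted p = 0.00736), where 2.15% of all genes were called lower. That of the tested plasma cell markers was -0.30 to -0.11 in C451A-ERα and -0.21 to 0.77 in wild-type LCs with E2+Pg, and -0.40 to 0.48 in C451A-ERα and -0.15 to 0.46 in wild-type LCs with E2. All 8 markers of hormone-sensing luminal cells, among them Esr1, Pgr, Foxa1 and Prlr, had negative log2 fold changes for E2+Pg against E2 in both genotypes. Over both genotypes 7 of the 8, all but Prlr, were called lower, where 2.15% of all genes were. The mean deviation of these 8 genes was -1.24 to 0.07 in C451A-ERα and -0.75 to -0.33 in wild-type LCs with E2+Pg, and 0.52 to 0.84 in C451A-ERα and 0.17 to 0.78 in wild-type LCs with E2. In bulk RNA, fewer cells of a type and less RNA per cell cannot be told apart, and the part of these cells in the results below was not tested. Mice L4, L27 and L18, all C451A-ERα, had the lowest weights when arrays were weighted by how well they fitted the model (0.24, 0.282 and 0.299, against 0.486 to 3.45 in the others).

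Genes were compared with limma, and the call asked for a change of more than 1.5-fold with a two-sided p, adjusted after Benjamini and Hochberg, below 0.05. Of the 35 genes, 1 was called. Ern1 was lower in wild-type LCs with E2+Pg than in wild-type LCs with E2, where 0.735% of all genes were called lower and 0.591% higher. E2+Pg against E2 in C451A-ERα LCs gave 0 calls among the 35 genes, although 1.02% of all genes were called higher and 1.43% lower. C451A-ERα against wild-type LCs gave 0 calls under E2+Pg (0% of all genes were called higher and 0.0048% lower) and under E2 (0.00961% and 0.0192%). At an unadjusted p under 0.05, limma gave 3 higher and 5 lower genes for the genotype under E2+Pg, where 7.99% and 10.3% of all genes were higher and lower, and 0 higher and 2 lower under E2 (7.04% and 6.54% of all genes). It gave 4 higher and 5 lower for progesterone in C451A-ERα LCs (8.54% and 9.78%) and 0 higher and 1 lower in wild-type LCs (9.48% and 6.76%). The interaction of genotype and progesterone had 0 calls among the 35 and among all genes, with 3 higher and 3 lower at an unadjusted p under 0.05 (3.83% and 5.54%). Over both treatments the genotype had 0 calls among the 35 (0.355% of all genes were called higher and 1.93% lower), and over both genotypes progesterone had 0 (1.63% and 2.15%). These pooled comparisons had 6 higher and 7 lower genes for the genotype at an unadjusted p under 0.05 (8.72% and 9.61% of all genes) and 3 higher and 3 lower for progesterone (11.7% and 9.24%). With the 3 arrays of lowest weight left out, a choice made after seeing the data, 9 of the 35 genes were called for the genotype under E2+Pg, against 14.7% of all genes, so that the count of 0 in this comparison depends on these arrays. They were Asns, Chac1, Ppp1r15a and Trib3, all higher, and Derl3, Edem2, Pdia4, Sdf2l1 and Sec61b, all lower in C451A-ERα LCs. In the same fit 2 genes were called for the genotype under E2 (1.52% of all genes) and 4 over both treatments (12.3%), and for progesterone 0 in C451A-ERα LCs (0.557%), 1 in wild-type LCs (3.87%) and 1 over both genotypes (3.66%). When all arrays were kept but weighted, 6 genes were called for the genotype under E2+Pg (11% of all genes), 5 under E2 (10.9%) and 4 over both treatments (12.3%). For progesterone the weighted fit called 1 in C451A-ERα LCs (3.48%), 2 in wild-type LCs (7.9%) and 1 over both genotypes (5.52%). Both fits discount arrays that deviated in these same data, and for the genotype they called far more of all genes than the main fit. Passing in them, here and below, is therefore no separate support for a gene. The arrays left out were L4 and L27 with E2 and L18 with E2+Pg, so only C451A-ERα groups became smaller. Of 20 cell cycle genes, 20 were below 0 for the genotype under E2+Pg, where 46.5% of all genes were above 0. Limma gave 16 of the 20 lower at an unadjusted p under 0.05 (10.3% of all genes) and called 0. Their mean deviation from all mice was -2.69 to 1.03 in C451A-ERα and -0.02 to 0.78 in wild-type LCs with E2+Pg, and -0.93 to 1.35 in C451A-ERα and -0.28 to 0.48 in wild-type LCs with E2. Their part in the genotype differences under E2+Pg was not tested. Each gene was read from its brightest probe. Of 21 genes with several probes, all probes had the same sign in 13 for the genotype under E2+Pg, in 16 for the genotype under E2, and in 17 and 15 for progesterone in C451A-ERα and in wild-type LCs.

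**Figure D1:**
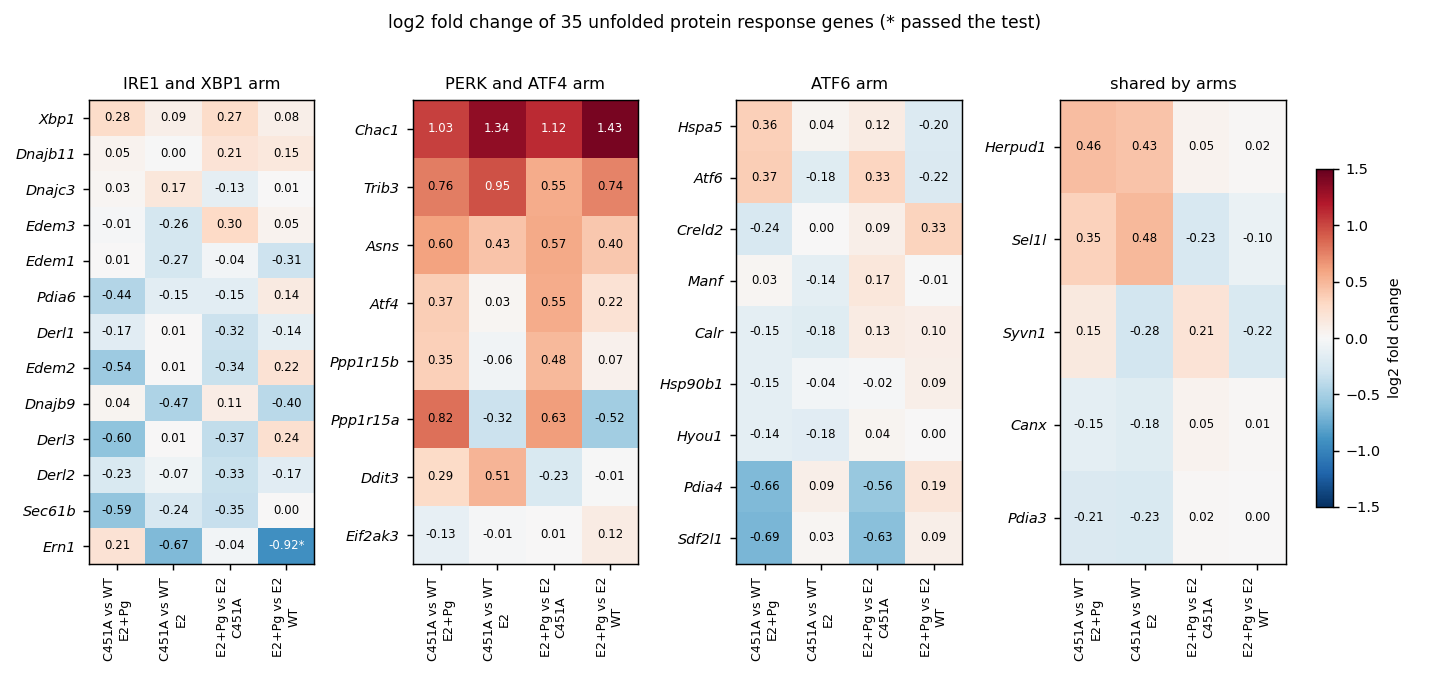
The log2 fold changes of the 35 tested genes (rows) in 4 comparisons (columns), in a panel for each arm; red is higher and blue lower in the group named first, and an asterisk marks the call. Chac1 has the largest values, 1.03 to 1.43, without passing the test, and Ern1, at -0.92 for progesterone in wild-type LCs, is the gene that passed.

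Ern1, which encodes the sensor and nuclease IRE1α, stood highest in wild-type LCs with E2. Its log2 signal was 10.05, 9.47, 9.82, 10.03 and 10.11 in C451A-ERα mice and 9.88, 9.80, 9.66, 9.62 and 9.46 in wild-type mice with E2+Pg. With E2 it was 9.96, 9.53, 10.07, 10.07 and 10.05 in C451A-ERα mice and 10.62, 10.61, 10.31 and 10.86 in wild-type mice. All 4 wild-type mice with E2 lay above the 15 other mice. Between the wild-type groups alone, 2.86% of all genes were lower with progesterone without overlap. The share of genes with these 4 mice above all 15 others was not computed. In wild-type LCs the mean was 9.68 ± 0.16 with E2+Pg (SD, n = 5) and 10.60 ± 0.22 with E2 (SD, n = 4), a log2 fold change of -0.92 (standard error 0.16, limma adjusted p = 0.00882), or 1.89-fold lower with progesterone. Within slides the difference lay between -1.40 and -0.69 and was negative on 4 of 4 slides. The call was lost without wild-type E2 mouse L52, where the log2 fold change was -0.83 (adjusted p = 0.0643), and it held in the other 30 alternatives tried. In C451A-ERα LCs the means were 9.90 ± 0.26 with E2+Pg and 9.93 ± 0.23 with E2 (SD, n = 5 each), a difference of -0.04 (adjusted p = 0.921).

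Under E2, Ern1 was at a log2 fold change of -0.67 in C451A-ERα against wild-type LCs (standard error 0.16), and the groups did not overlap, which held for 1.41% of all genes in this direction. The exact permutation test gave p = 0.00794, the smallest that 5 against 4 mice allow, and the adjusted p was 0.117, so that the gene did not pass. It passed without wild-type mouse L72 (-0.76, adjusted p = 0.0115), with array weights (-0.69, adjusted p = 0.000398) and without the 3 arrays of lowest weight (-0.72, adjusted p = 0.0461). In the last 2 of these fits 10.9% and 1.52% of all genes were called in this comparison. This comparison and that of progesterone in wild-type LCs share the 4 wild-type E2 mice. Under E2+Pg the genotypes differed by 0.21 (adjusted p = 0.412). The interaction was 0.88 (standard error 0.21, unadjusted p = 0.000639, adjusted p = 0.472), so a difference between the genotypes in the effect of progesterone did not pass the test. Over both genotypes Ern1 was at -0.48 with progesterone (adjusted p = 0.00996), below the fold threshold.

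Ern1 had 5 probes, of which 3 were above background on all 19 arrays and 2 on none. The values above come from the brightest, at chr11:106255965-106256024 of mm9, the build of the probe coordinates. The second, at chr11:106258948-106259007, read 9.59, 8.87, 8.35, 8.25 and 8.48 in wild-type mice with E2+Pg and 9.79, 9.73, 9.27 and 10.24 in those with E2, where mouse L57 overlapped the E2 group. Its log2 fold change was -1.05 for progesterone in wild-type LCs (adjusted p = 0.0599 when all probes were tested) and -1.14 for the genotype under E2 (adjusted p = 0.139). The third, at chr11:106275124-106275183, gave -0.34 and -0.33 (adjusted p = 0.342 and 0.432), so the probes differed in the size of the difference. They also differed in sign for progesterone in C451A-ERα LCs, at -0.04, 0.11 and -0.33, where the groups did not differ beyond the test. The exons and UTRs of these positions were not analysed here.

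**Figure D2:**
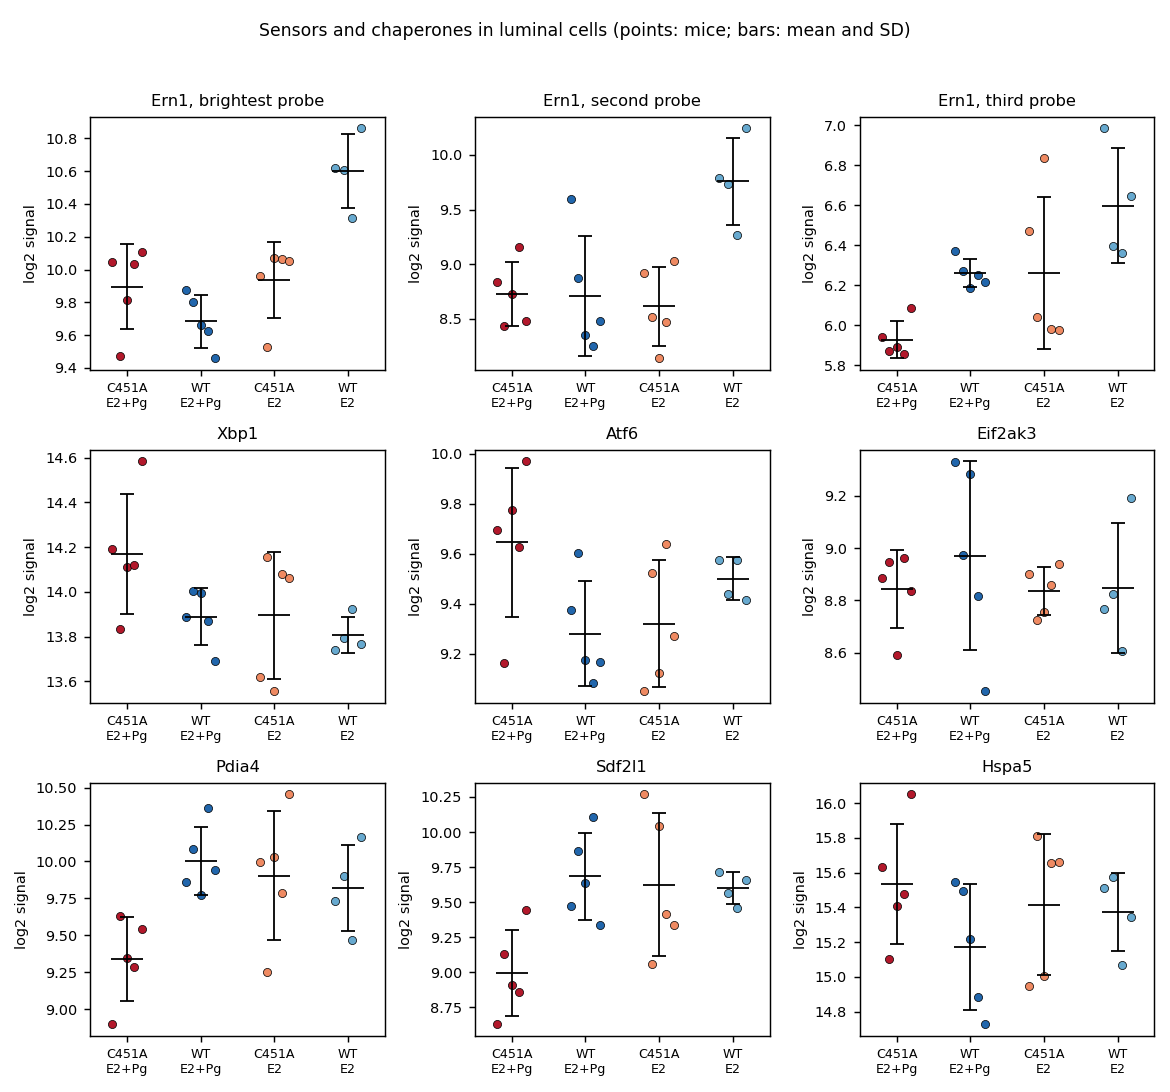
Log2 signal of Ern1 by its 3 detected probes and of Xbp1, Atf6, Eif2ak3, Pdia4, Sdf2l1 and Hspa5 in the 4 groups; points are mice and bars the mean and SD. The 4 wild-type E2 mice lie between 10.31 and 10.86 on the brightest Ern1 probe, above all other mice, and C451A-ERα mice with E2+Pg have the lowest means for Pdia4 and Sdf2l1.

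No other gene of the IRE1 and XBP1 arm was called. Xbp1, whose mRNA IRE1 splices, had 14.19, 13.84, 14.11, 14.12 and 14.58 in C451A-ERα and 13.89, 14.00, 13.99, 13.87 and 13.69 in wild-type mice with E2+Pg, and 13.62, 14.16, 13.56, 14.08 and 14.06 in C451A-ERα and 13.74, 13.79, 13.92 and 13.77 in wild-type mice with E2. The groups overlapped in each of the 4 comparisons, with log2 fold changes of 0.28 and 0.09 for the genotype under E2+Pg and E2 and of 0.27 and 0.08 for progesterone in C451A-ERα and wild-type LCs (adjusted p from 0.292 to 0.85). Dnajb9, a co-chaperone of BiP and a known XBP1 target, was at -0.47 in C451A-ERα against wild-type LCs under E2 and at -0.40 with progesterone in wild-type LCs (adjusted p = 0.287 and 0.315). Its levels were 9.20 to 9.87 in C451A-ERα and 9.59 to 10.30 in wild-type LCs with E2, which overlap. Sec61b, a subunit of the channel through which proteins enter the ER, and Edem2, a lectin-like protein that hands misfolded glycoproteins to degradation, were lower on 5 of 5 slides in C451A-ERα than in wild-type LCs under E2+Pg. For Sec61b the mean was 13.37 ± 0.28 in C451A-ERα and 13.96 ± 0.22 in wild-type LCs (SD, n = 5 each), a difference of -0.59 (adjusted p = 0.166). For Edem2 the difference was -0.54, and -1.06 to -0.13 within slides (adjusted p = 0.13). Neither passed the test. The median over the 13 tested genes was -0.01 under E2+Pg and -0.07 under E2 for the genotype, and -0.13 in C451A-ERα and 0.01 in wild-type LCs for progesterone. Of the 13 genes, 6, 5, 4 and 8 had values above 0 in these comparisons, where 46.5%, 53.9%, 50.3% and 55.6% of all genes did. The first of these medians was -0.17 without wild-type E2+Pg mouse L21, and the third was 0.03 without C451A-ERα mouse L18.

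The PERK and ATF4 arm held the largest log2 fold changes and the largest spread between mice. Chac1, an ATF4 target that breaks down glutathione, had 12.27, 8.94, 12.87, 11.02 and 12.50 in C451A-ERα and 10.75, 10.32, 10.20, 11.07 and 10.11 in wild-type mice with E2+Pg. With E2 it had 9.80, 11.29, 8.28, 11.81 and 10.81 in C451A-ERα and 8.87, 8.57, 10.57 and 8.24 in wild-type mice. Mouse L18 lay low in the C451A-ERα E2+Pg group and mouse L27 in the C451A-ERα E2 group, and mouse L72 lay high in the wild-type E2 group. The genotype difference was 1.03 under E2+Pg and 1.34 under E2, and that of progesterone 1.12 in C451A-ERα and 1.43 in wild-type LCs, with standard errors of 0.70 to 0.74 and adjusted p of 0.351 to 0.462. Within slides, C451A-ERα was the higher genotype on 3 of 5 slides under E2+Pg, with differences of -1.38 to 2.67, and on 4 of 4 under E2, with 0.93 to 2.72. Chac1 passed for the genotype under E2 and for progesterone in wild-type LCs with array weights (2.29 and 1.70, adjusted p = 0.00119 and 0.033), and for the genotype under E2 and under E2+Pg without the 3 arrays of lowest weight (2.24 and 1.68, adjusted p = 0.0461 and 0.0161).

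Trib3, a pseudokinase that is induced by ATF4 and CHOP, was also highest on average in C451A-ERα LCs with E2+Pg and lowest in wild-type LCs with E2. It had 11.97, 10.04, 12.47, 10.84 and 12.69 in C451A-ERα mice and 10.08 to 11.24 (median 10.94) in wild-type mice with E2+Pg, and 10.76, 11.47, 10.44, 11.84 and 10.73 in C451A-ERα and 10.04, 9.74, 11.02 and 9.59 in wild-type mice with E2. The genotype differences were 0.76 and 0.95 (adjusted p = 0.332 and 0.387). The groups overlapped, with mouse L18, at 10.04, below all 5 wild-type mice of its treatment. Asns, which makes asparagine and is a standard ATF4 target, had 12.26, 11.48, 12.68, 11.83 and 12.73 in C451A-ERα and 11.63, 11.63, 11.65, 11.66 and 11.39 in wild-type mice with E2+Pg, and 10.94, 11.91, 11.61, 12.01 and 11.63 in C451A-ERα and 11.16, 11.12, 11.58 and 10.90 in wild-type mice with E2. The genotype differences were 0.60 (adjusted p = 0.211) and 0.43 (adjusted p = 0.472), and over both treatments 0.52 (standard error 0.17, adjusted p = 0.0982). The 5 wild-type mice with E2+Pg lay within 11.39 to 11.66 for Asns, while the 5 C451A-ERα mice reached from 11.48 to 12.73. For progesterone the differences were 0.57 in C451A-ERα and 0.40 in wild-type LCs (adjusted p = 0.185 and 0.415). A second Asns probe gave 0.50 and 0.36 for the genotype under E2+Pg and E2. With array weights Trib3 and Asns passed for the genotype under E2 (1.26 and 0.64, adjusted p = 0.00978 and 0.00654). Without the 3 arrays of lowest weight both passed for the genotype under E2+Pg (1.15 and 0.78, adjusted p = 0.0406 and 0.00877).

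The sensor and the transcription factors of this arm had smaller fold changes than Chac1. Eif2ak3, which encodes PERK, lay within 8.59 to 8.96 in C451A-ERα and 8.45 to 9.33 in wild-type LCs with E2+Pg, and within 8.73 to 8.94 and 8.61 to 9.19 in those with E2. Its log2 fold changes were -0.13, -0.01, 0.01 and 0.12 in the 4 comparisons in the order above (adjusted p from 0.649 to 0.986). Atf4, the transcription factor whose translation PERK favours, had 16.40, 15.37, 16.30, 15.79 and 16.39 in C451A-ERα and 15.90, 15.71, 15.81, 15.79 and 15.22 in wild-type mice with E2+Pg, and 14.89, 15.98, 14.80, 16.05 and 15.76 in C451A-ERα and 15.60, 15.46, 15.42 and 15.38 in wild-type mice with E2. Its largest difference was 0.55 for progesterone in C451A-ERα LCs (standard error 0.25, adjusted p = 0.246), with mice L4 and L27 at 14.89 and 14.80 below the 3 others of the E2 group. Ddit3, which encodes the pro-apoptotic factor CHOP, was at 0.29 and 0.51 for the genotype and at -0.23 and -0.01 for progesterone (adjusted p from 0.441 to 0.991). On its brightest probe mice L4 and L27 were at 8.74 and 8.63, in a C451A-ERα E2 group whose other mice lay between 7.54 and 8.00. A second Ddit3 probe put the same mice at 7.60 and 7.50, below L58 at 7.98, and gave 0.32 for progesterone in C451A-ERα LCs, so that the probes disagree on these mice and on this sign.

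Ppp1r15a, the stress-induced GADD34 subunit that takes the phosphate off eIF2α, was ordered differently from Chac1. It had 14.37, 13.80, 14.19, 13.83 and 14.91 in C451A-ERα and 13.64, 13.85, 12.75, 13.05 and 13.70 in wild-type mice with E2+Pg, and 13.21, 14.09, 12.91, 14.01 and 13.76 in C451A-ERα and 13.93, 13.88, 13.98 and 13.89 in wild-type mice with E2. The genotypes differed by 0.82 under E2+Pg (standard error 0.26, adjusted p = 0.166) and by -0.32 under E2 (adjusted p = 0.65). Wild-type mice with E2+Pg did not overlap with wild-type mice with E2 (2.86% of all genes were lower without overlap), at -0.52 (adjusted p = 0.354), and in C451A-ERα LCs progesterone gave 0.63 (adjusted p = 0.202). The interaction was 1.15 (unadjusted p = 0.00693, adjusted p = 0.472). Immediate early and dissociation genes ran the same way for the genotype under E2+Pg and for progesterone in wild-type LCs. All 18 of a list of them were above 0 for the genotype under E2+Pg (median 0.52), where 46.5% of all genes were. Limma called 0 of the 18 and gave 11 higher at an unadjusted p under 0.05 (7.99% of all genes). For progesterone in wild-type LCs 16 of 18 were below 0 (median -0.55), where 55.6% of all genes were above 0. Limma called 0 and gave 9 lower at an unadjusted p under 0.05 (6.76% of all genes). For the genotype under E2, 9 of the 18 were above 0 (median 0.01), where 53.9% of all genes were. For progesterone in C451A-ERα LCs 11 of the 18 were above 0 (median 0.12), where 50.3% of all genes were. The part of these genes in the Ppp1r15a values was not tested. Ppp1r15b, the constitutive counterpart of GADD34, was at 0.35 and -0.06 for the genotype and at 0.48 and 0.07 for progesterone, and none of these passed the test.

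**Figure D3:**
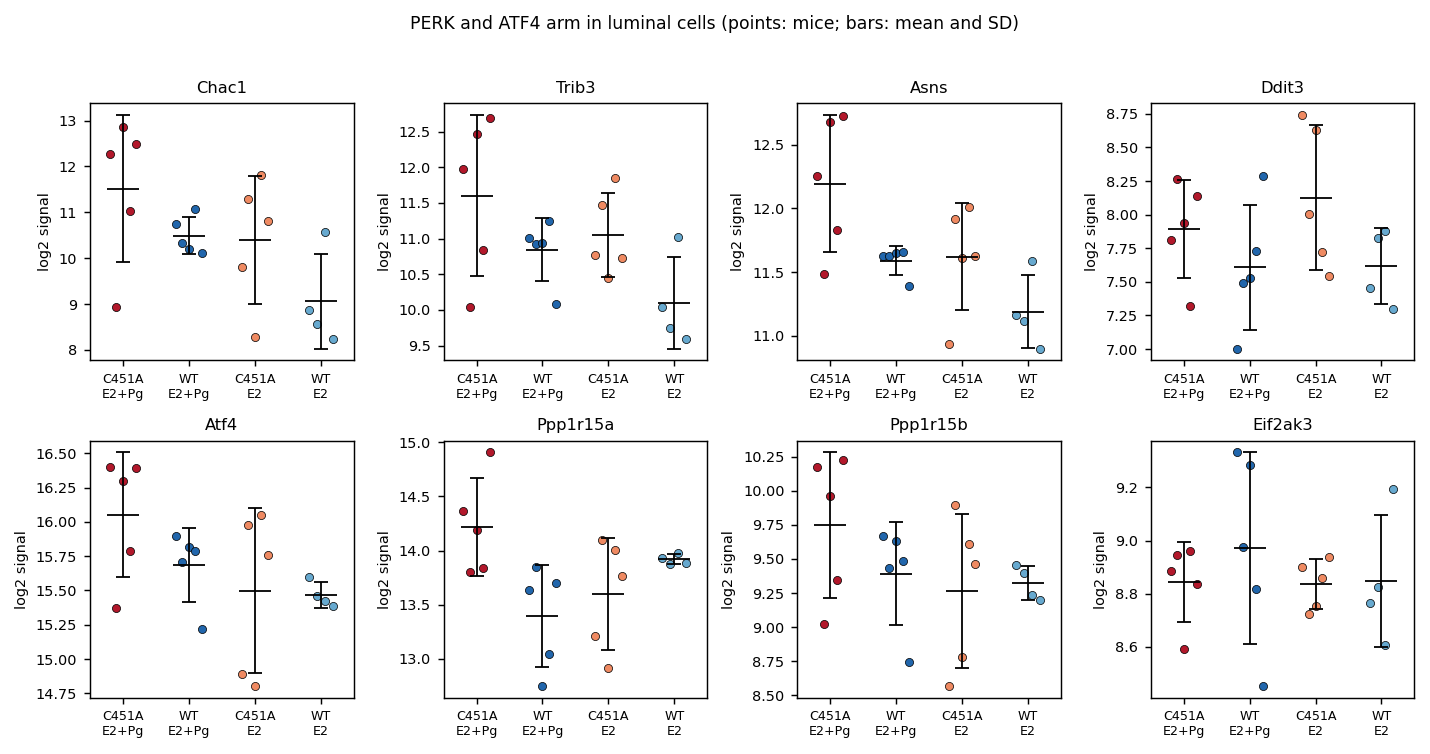
Log2 signal of the 8 genes of the PERK and ATF4 arm in the 4 groups; points are mice and bars the mean and SD. Chac1, Trib3 and Asns are highest on average in C451A-ERα LCs with E2+Pg and lowest in wild-type LCs with E2, while Ppp1r15a is lowest in wild-type LCs with E2+Pg.

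Atf6 and most of its chaperone targets differed by less than 0.4 log2 units between group means. Atf6 had 9.69, 9.16, 9.78, 9.63 and 9.97 in C451A-ERα and 9.37, 9.60, 9.17, 9.08 and 9.17 in wild-type mice with E2+Pg, and 9.05, 9.52, 9.12, 9.64 and 9.27 in C451A-ERα and 9.57, 9.44, 9.58 and 9.42 in wild-type mice with E2. The genotype differences were 0.37 under E2+Pg and -0.18 under E2 (adjusted p = 0.231 and 0.669). Hspa5, which encodes BiP, the chaperone that holds the sensors inactive, had 15.63, 15.10, 15.41, 15.48 and 16.05 in C451A-ERα and 15.54, 15.50, 15.22, 14.89 and 14.73 in wild-type mice with E2+Pg, and 14.95, 15.81, 15.00, 15.65 and 15.66 in C451A-ERα and 15.51, 15.57, 15.07 and 15.34 in wild-type mice with E2. Its differences were 0.36 and 0.04 for the genotype and 0.12 and -0.20 for progesterone, with standard errors of 0.21 to 0.23 and adjusted p of 0.344 to 0.958. The groups overlapped in all 4 comparisons. Hsp90b1 (the chaperone GRP94), Hyou1 (GRP170), Calr (calreticulin), Creld2 and Manf ranged from -0.24 to 0.33 over the 4 comparisons, and none passed the test.

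Pdia4 and Sdf2l1 were the exceptions in this arm. Pdia4, the disulfide isomerase ERp72, had 8.90, 9.63, 9.35, 9.29 and 9.54 in C451A-ERα and 9.86, 10.08, 9.78, 10.37 and 9.94 in wild-type mice with E2+Pg, and 9.99, 9.25, 10.03, 9.79 and 10.46 in C451A-ERα and 9.73, 9.90, 9.47 and 10.17 in wild-type mice with E2. Under E2+Pg the genotypes did not overlap (1.7% of all genes were lower without overlap), the difference was -0.66 (standard error 0.20), and it was negative on 5 of 5 slides (-1.08 to -0.40). The exact permutation test gave p = 0.00794, the smallest that 5 against 5 mice allow, and limma an adjusted p of 0.152. Sdf2l1, a component of the BiP complex, had 8.63, 9.13, 8.91, 8.86 and 9.44 in C451A-ERα and 9.47, 9.86, 9.64, 10.11 and 9.34 in wild-type mice with E2+Pg, and 10.27, 9.06, 10.04, 9.41 and 9.34 in C451A-ERα and 9.72, 9.57, 9.45 and 9.66 in wild-type mice with E2. The genotype difference under E2+Pg was -0.69 (adjusted p = 0.163) and lay below 0 on 4 of 5 slides. Under E2 both genes hardly differed between genotypes, at 0.09 and 0.03. Progesterone in C451A-ERα LCs gave -0.56 for Pdia4 and -0.63 for Sdf2l1 (adjusted p = 0.13 and 0.114), and both passed without C451A-ERα E2 mouse L58. For the genotype under E2+Pg both genes passed with array weights (-0.78 and -0.85, adjusted p = 0.0393 and 0.0117) and without the 3 arrays of lowest weight (-0.73 and -0.72, adjusted p = 0.0259 and 0.011), and Pdia4 passed without mouse L18.

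The genes that several arms share serve the degradation and the lectin cycle of glycoproteins. Sel1l, which holds the HRD1 ubiquitin ligase complex together, and Herpud1, which binds that complex, were at 0.35 and 0.46 for the genotype under E2+Pg and at 0.48 and 0.43 under E2. Over both treatments they were at 0.42 and 0.44 (adjusted p = 0.179 and 0.144). A second Sel1l probe, a dimmer one, gave -0.13 under E2+Pg and 0.48 under E2. Sel1l passed with array weights for the genotype under E2+Pg (0.63, adjusted p = 0.0412) and under E2 (0.78, adjusted p = 0.00214), but it was not among the genes called without the 3 arrays of lowest weight. Syvn1, the ligase HRD1 itself, was at 0.15 and -0.28. Pdia3, the disulfide isomerase ERp57 that works with calnexin, was at -0.21 under E2+Pg and -0.23 under E2 (limma adjusted p = 0.447 under E2). Its levels with E2 were 11.7326 to 11.9742 in C451A-ERα and 11.9755 to 12.1642 in wild-type mice. The genotypes thus missed overlap by a narrow margin, and 1.41% of all genes were lower without overlap. Canx, calnexin, was at -0.15 and -0.18. For progesterone the 5 genes had log2 fold changes of -0.23 to 0.21 in C451A-ERα LCs and of -0.22 to 0.02 in wild-type LCs.

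Set side by side, the PERK and ATF4 arm had the highest medians of the arms. For the genotype under E2+Pg its median log2 fold change was 0.48, with 7 of 8 genes above 0, while those of the IRE1 and XBP1 arm and of the ATF6 arm were -0.01 (6 of 13) and -0.15 (3 of 9). Under E2 the medians were 0.23 (5 of 8), -0.07 (5 of 13) and -0.04 (4 of 9). For progesterone they were 0.55 (7 of 8), -0.13 (4 of 13) and 0.09 (6 of 9) in C451A-ERα LCs, and 0.17 (6 of 8), 0.01 (8 of 13) and 0.09 (6 of 9) in wild-type LCs. Of all genes 46.5%, 53.9%, 50.3% and 55.6% were above 0 in the same order of comparisons. No gene of the PERK and ATF4 arm passed the test in these comparisons, and the mice of a group differed widely. The mean deviation of the 8 genes from all mice was -0.35 to 0.97 in C451A-ERα and -0.33 to 0.03 in wild-type LCs with E2+Pg, and -0.55 to 0.41 in C451A-ERα and -0.62 to -0.04 in wild-type LCs with E2. The SD between the mice of a group was 0.15 to 0.56 for this arm, 0.07 to 0.18 for the IRE1 and XBP1 arm and 0.07 to 0.24 for the ATF6 arm. The lowest C451A-ERα mice were L18 with E2+Pg and L27 and L4 with E2, the mice of lowest array weight.

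**Figure D4:**
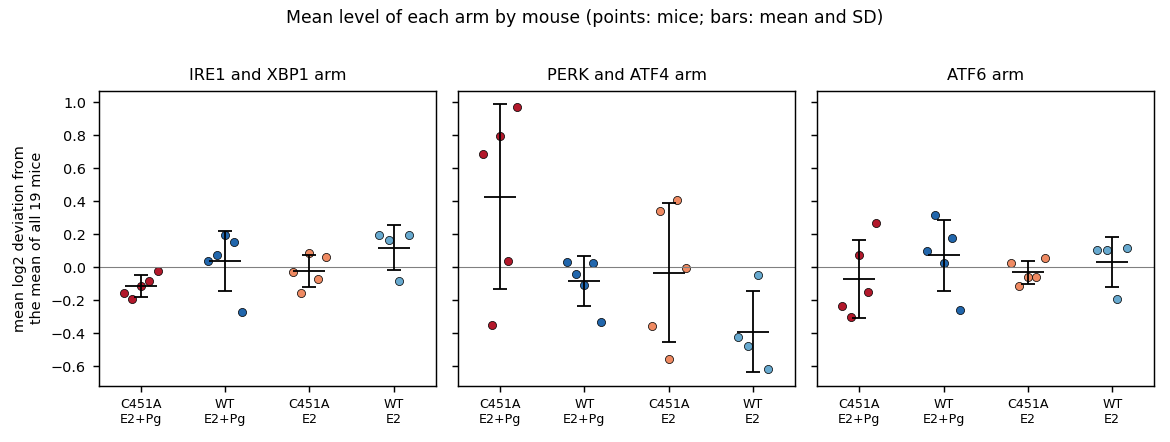
Mean log2 deviation of the tested genes of each arm from their mean over all 19 mice, by group; points are mice and bars the mean and SD. The mice of the PERK and ATF4 arm spread from -0.62 to 0.97, and the arms otherwise stay within 0.32 of 0.

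The genes also varied together from mouse to mouse within groups. After the mean of each group was taken off, 76 of the 595 pairs of the 35 genes were positively and 17 negatively correlated over the 19 mice (permutation test within groups, two-sided, Benjamini-Hochberg adjusted over the 595 pairs). At r of 0.8 or more lay 4.2% of these pairs, against 1.77% of all pairs of genes on the arrays, and at -0.8 or less 0.672% against 1.3%. The median r was 0.236 for the 595 pairs and 0.01 for all. Atf4 and Ppp1r15b had r = 0.962 (Spearman's rho = 0.954, permutation p = 3e-05, adjusted p = 0.0036), and r was 0.966 without the mice farthest from the median, L18 and L27. Trib3 and Chac1 had r = 0.899 (rho = 0.912, permutation p = 1e-05, the smallest that 100000 permutations give, adjusted p = 0.0036), with r = 0.86 without L18 and L63. Trib3 and Asns had r = 0.882 (rho = 0.935, permutation p = 3e-05, adjusted p = 0.0036), with r = 0.807 without the same mice. With slides taken off as well, these r were 0.978, 0.918 and 0.922.

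On its brightest probe Ddit3 had negative r with the other genes named of its arm, none of which passed the test. It was -0.612 with Atf4 (rho = -0.556, permutation p = 0.028, adjusted p = 0.11, and -0.512 without L18 and L27) and -0.321 with Chac1 (rho = -0.233, permutation p = 0.22, adjusted p = 0.38, and -0.288 without L21 and L4). Correlations of the second Ddit3 probe, which disagreed on mice L4 and L27, were not computed, so these signs hold for the brightest probe only. The ER chaperone genes formed pairs across arms, such as Dnajb11 and Creld2 (r = 0.896, rho = 0.802, permutation p = 0.00084, adjusted p = 0.015, and r = 0.802 without L18 and L21) and Manf and Pdia3 (r = 0.893, rho = 0.844, permutation p = 2e-05, adjusted p = 0.0036, and r = 0.88 without the same mice). Derl3, a derlin of ER-associated degradation, ran opposite to Atf6 (r = -0.895, rho = -0.879, permutation p = 8e-05, adjusted p = 0.0053, and r = -0.814 without L18 and L4). It also ran opposite to Xbp1 (r = -0.808, rho = -0.856, permutation p = 0.0013, adjusted p = 0.019, and r = -0.804 without L27 and L63). Derl3 had 6.44, 8.87, 7.15, 7.47 and 6.40 in C451A-ERα mice with E2+Pg, against a mean of 7.87 ± 0.36 in wild-type mice (SD, n = 5), and its highest levels, 8.87 and 8.46, were in mice L18 and L4. Ern1 and Xbp1, sensor and substrate, had r = 0.177 (rho = 0.151, permutation p = 0.54, adjusted p = 0.66, and r = 0.208 without L18 and L58). All genes of a mouse share its array, and what the pairs owe to the quality of the RNA was not tested.

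**Figure D5:**
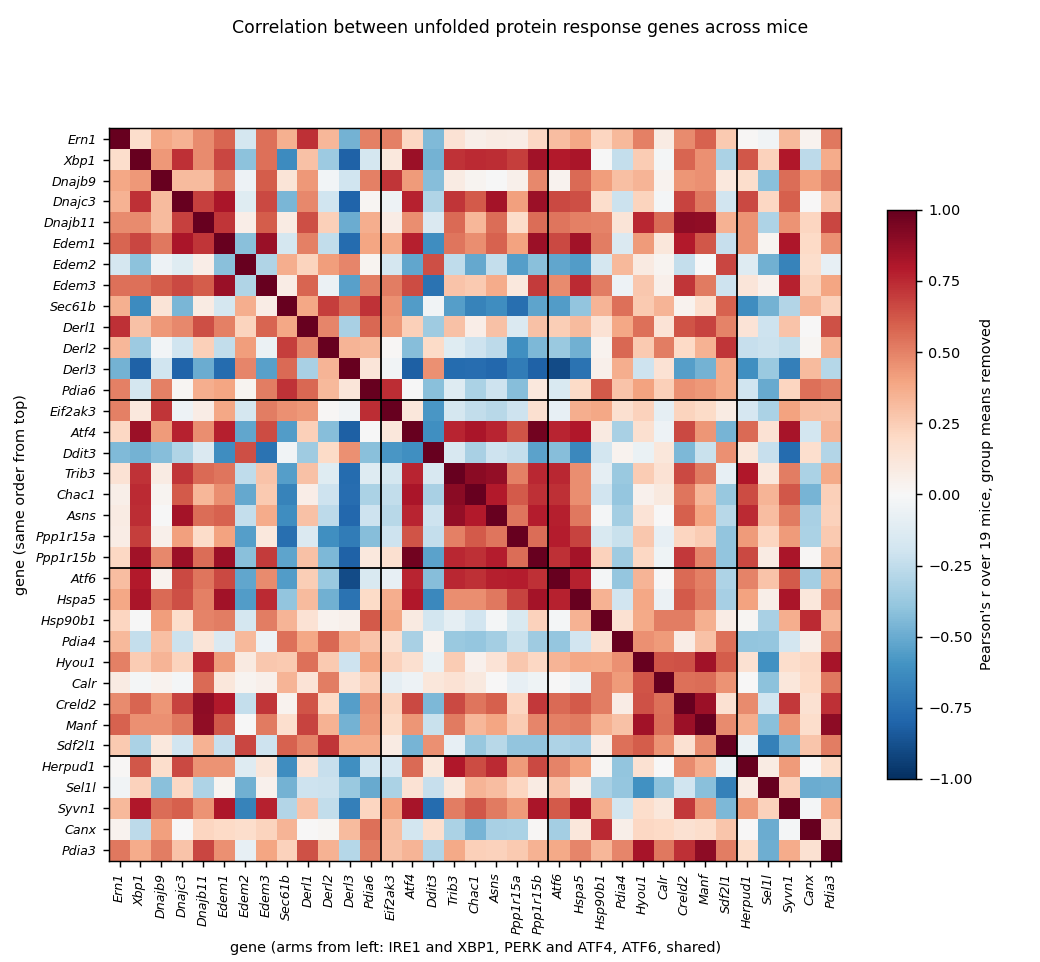
Pearson's r over 19 mice between the 35 tested genes after the group means were taken off, with the genes ordered by arm and lines between the arms. The block of Atf4, Trib3, Chac1, Asns, Ppp1r15a and Ppp1r15b is red, and the row of Derl3 is blue against Xbp1, Atf4 and Atf6 (r = -0.808, -0.82 and -0.895).

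Other genes of the response were read through further lists. Of 27 tested further ATF4 targets, 22 were above 0 for the genotype under E2+Pg (median 0.30) and 19 under E2 (median 0.10), where 46.5% and 53.9% of all genes were above 0. Limma called 0 of them for the genotype under either treatment, and at an unadjusted p under 0.05 it gave 6 higher and 1 lower under E2+Pg (7.99% and 10.3% of all genes) and 4 higher and 1 lower under E2 (7.04% and 6.54% of all genes). For progesterone 17 of 27 were above 0 in each genotype, with medians of 0.39 in C451A-ERα and 0.14 in wild-type LCs, where 50.3% and 55.6% of all genes were above 0. At an unadjusted p under 0.05 limma gave 11 higher and 4 lower in C451A-ERα LCs (8.54% and 9.78% of all genes). In wild-type LCs it gave 3 higher and 3 lower (9.48% and 6.76%). Over both treatments the genotype had 10 higher and 1 lower (8.72% and 9.61%). Over both genotypes progesterone had 10 higher and 3 lower (11.7% and 9.24%). Called among them were Stc2, a secreted glycoprotein, which fell in C451A-ERα LCs with progesterone (log2 fold change -2.25, mean 11.28 with E2+Pg and 13.53 with E2, adjusted p = 0.0011), and Psat1, an enzyme of serine synthesis, which rose in wild-type LCs by 0.98 (11.23 with E2+Pg and 10.26 with E2, adjusted p = 0.0421). Of all genes 1.43% were called lower with progesterone in C451A-ERα LCs and 0.591% higher in wild-type LCs. Stc2 was also lower in C451A-ERα LCs over both treatments (-0.83, adjusted p = 0.034), where 1.93% of all genes were called lower. Over both genotypes progesterone lowered Stc2 (-1.66, adjusted p = 0.000113) and Nupr1, a stress-induced nuclear protein (-0.85, adjusted p = 0.0257), and raised Psat1 (0.74, adjusted p = 0.00781) and Vldlr, a lipoprotein receptor (0.63, adjusted p = 0.0338). Of 24 other regulators of the response, Wfs1, the ER membrane protein wolframin, was, like Ern1, lower with progesterone in wild-type LCs (log2 fold change -1.10, adjusted p = 0.0124). In that comparison 0.735% of all genes were called lower. Wfs1 was also lower in C451A-ERα LCs over both treatments (-0.66, adjusted p = 0.0205). Over both genotypes progesterone lowered Wfs1 (-0.79, adjusted p = 0.00162) and Bok, a BCL-2 family protein of the ER (-0.86, adjusted p = 0.0097). For progesterone over both genotypes 2.15% of all genes were called lower and 1.63% higher.

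For the genotype, the medians of further lists of ER genes lay between -0.27 and 0.07. Of 30 genes of the translocon and of oligosaccharide transfer, 26 were below 0 for the genotype under E2+Pg, with a median of -0.21, and 19 under E2, with a median of -0.04. Of 17 folding and disulfide enzymes, 14 were below 0 under E2+Pg (median -0.27) and 7 under E2 (median 0.07). Single genes of these lists lay between -0.69 and 0.29 and between -0.64 and 0.19 under E2+Pg. No gene of these lists was called for the genotype by limma, and at an unadjusted p under 0.05 they had 11 and 4 lower genes under E2+Pg, where 10.3% of all genes were lower. The 20 further genes of ER-associated degradation and the 20 of transport to the Golgi had medians between -0.11 and 0.06 in the 4 comparisons, and the 16 cytosolic heat shock genes between -0.08 and 0.08. The 10 mitochondrial chaperones and proteases were all above 0 for the genotype under E2 (median 0.26) and for progesterone in wild-type LCs (median 0.25). Of all genes 53.9% and 55.6% were above 0 in these comparisons, which share the wild-type E2 mice. Limma called 0 of the 10 and gave 2 and 4 higher at an unadjusted p under 0.05 (7.04% and 9.48% of all genes).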

How the data were processed

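RNA of sorted luminal cells was measured on 19 Agilent arrays, 1 mouse each. The deposited intensity values are the scanner's median spot signals, as Agilent Feature Extraction 10.10.1.1 wrote them, with flags for spots above background and for outliers. The authors also deposited a table of log2 values, which per the methods had been filtered, corrected for batches and quantile normalized, and it served as an alternative. Here the median signals were taken to log2 without background subtraction, flagged outlier spots were left out, spots of a probe were averaged, and all probes that are not controls were quantile normalized. A probe had to stand well above background on at least 4 arrays, which 31841 did, and the brightest stood for its gene, or for 20817 genes. Gene names are those of the files, updated by accession through RefSeq's gene table (GRCm38.p6), and probe coordinates are mm9. Differences were tested with limma 3.58.1 in R 4.3.3, with 4 group means (15 residual degrees of freedom) and Benjamini-Hochberg adjustment over all genes. The smallest p of the exact permutation tests and the number of arrays limit the precision. Each array lay on 1 of 5 slides, which hold 1 mouse of each group except that 1 slide holds no wild-type E2 mouse. Correlations were computed in Python 3.11.15 with numpy 2.4.6 and adjusted with statsmodels 0.14.6. The procedure was tested on simulated data.

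The genes, lists and tests were chosen with earlier results of these data known. Described in full were the sensors and transcription factors, every gene called, and the 3 genes with the largest log2 fold change in each of the 4 simple comparisons. Asns, Pdia4, Hspa5 and Derl3 were described as well after their values were seen, and Sec61b, Edem2, Dnajb9, Sel1l and Pdia3 were singled out in the same way. Alternatives changed the slide block, array weights, normalization, background correction, filter, probe summary, arrays in the fit, variance prior and single mice. Leaving out the 3 arrays of lowest weight was added after seeing the data.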

Additional observations from a re-analysis of the deposited data

Results flagged for a closer look

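Among 40 groups of mice (10 genes in the 4 groups), 3 held a mouse far from the others by Dixon's criterion, which chance meets in about 1 of 20 groups. Ern1 was 9.53 in C451A-ERα mouse L58 with E2, against 9.96 to 10.07 in the other mice of its group. Atf4 was 15.22 in wild-type mouse L21 with E2+Pg, against 15.71 to 15.90 in the others. Trib3 was 10.08 in the same mouse, against 10.93 to 11.24 in the others.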

How the results depend on the processing

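Over the 31 alternatives no called gene changed its direction. The count of genes called, of 35, moved with the weight given to single arrays. With array weights it was 6 for the genotype under E2+Pg, 5 under E2 and 4 over both treatments and, for progesterone 1 in C451A-ERα LCs, 2 in wild-type LCs and 1 over both genotypes. Without the 3 arrays of lowest weight it was 9, 2 and 4 for the genotype, and 0 in C451A-ERα LCs, 1 in wild-type LCs and 1 over both genotypes for progesterone. The interaction gave 0 calls in both. When single mice were left out, the counts were 0 to 3, 0 to 1 and 0 to 2 for the genotype under E2+Pg, under E2 and over both treatments, and 0 to 2, 0 to 1 and 0 to 1 for progesterone in C451A-ERα, in wild-type and in both. The calls among all genes moved as well. They were 1 to 1101, 0 to 1044 and 5 to 1000 for the genotype in the same order. For progesterone they were 198 to 976, 29 to 579 and 585 to 914. Without L18, Asns, Edem2 and Pdia4 were called for the genotype under E2+Pg, Asns for progesterone in C451A-ERα LCs, Asns and Trib3 for the genotype over both treatments and Chac1 for progesterone over both genotypes. Without L4, Asns was called for the genotype over both treatments, and without L21 Pdia6 under E2+Pg. The median of the IRE1 and XBP1 arm lay between -0.1671 and 0.0547 for the genotype under E2+Pg and between -0.1565 and 0.027 for progesterone in C451A-ERα LCs. The log2 fold change of Ern1 in wild-type LCs lay between -1.01 and -0.77 (limma adjusted p from 0.000536 to 0.0643). The causes were not tested. No paired analysis was possible because the labels give the mice no shared replicate numbers, and the slide block stands in its place, with a correlation within slides of -0.106.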
